A study of Homo sapiens with 8 samples.

Results

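The comparison described here is the effect of GSI in cells that also received dTAG-13, across all expressed genes. Its libraries were chosen by their treatment labels: the 2 combination libraries (dTAG-13 and GSI together) were set against the 2 libraries of dTAG-13 alone, which makes 4 of the 8 libraries of the study. Of 63677 genes listed, 15646 had enough counts to be tested. All cells were TAL1-FKBP12 Jurkat cells, in which TAL1 carries the FKBP12 tag, and RNA was taken after 24 h. Jurkat is a long-established line from a human T-cell acute lymphoblastic leukaemia, abbreviated T-ALL. The other 4 libraries, 2 of cells given DMSO (the solvent) and 2 of cells given GSI alone, provide the same drug contrast without dTAG-13. Doses are not given in the labels, and neither the libraries with dTAG-13 nor the other libraries carry a measurement of TAL1 protein. The labels do not say that replicates were separate cultures. The p-values therefore measure only how far these samples spread, and that spread may be technical.

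NOTCH receptors are activated by 2 successive cuts: ADAM10 removes the outer part, and the gamma-secretase complex then frees the intracellular domain, which enters the nucleus, joins the DNA-binding protein RBPJ and switches on target genes. GSI commonly stands for gamma-secretase inhibitor, and such drugs stop the final cut. NOTCH1 signalling is active in many T-ALLs, Jurkat included. TAL1 is a basic helix-loop-helix factor that is not expressed in normal maturing thymocytes and drives a separate programme in T-ALL together with GATA3, RUNX1 and MYB. dTAG-13 joins an FKBP12-tagged protein to the cereblon ubiquitin ligase, which marks it for degradation.

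The 4 compared libraries held 20670781 to 22180009 counts, and replicates of each of the 4 groups were correlated at 0.994 to 0.996 (log2 CPM across genes; CPM are counts relative to the TMM-scaled library size). Counts within a pair of replicates differed by more than sampling noise, with a chi-square per degree of freedom of 5.60 for dTAG-13 and 11.8 for the combination, so none was a copy of another. Along the first principal component of these 4 libraries (49.5% of the variance) dTAG-13 replicates 1 and 2 lay at 9.71 and 18.7, and combination replicates 1 and 2 at -21.1 and -7.24. The second component (31.9%) placed combination replicate 1 at 10.4 and replicate 2 at -19.6. Of 12 T cell markers 11 were measurable, and their summed level was 3539 and 3728 CPM with dTAG-13 and 3313 and 3651 CPM with the combination. None of 12 myeloid markers had enough counts to be tested.

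With GSI added to dTAG-13, 100 genes rose and 89 fell, 1.21% of the genes tested in either direction (0.639% higher and 0.569% lower; edgeR's quasi-likelihood test, Benjamini-Hochberg adjusted p under 0.05). Falls were steeper: 33 genes fell and 14 rose at least 2-fold, while 40 of the risers and 29 of the fallers changed by under 1.5-fold. The median log2 fold change of all genes was -0.00089, and 13% of genes had an unadjusted p under 0.05. In all 189 called genes the combination libraries lay wholly above or below the dTAG-13 libraries, a pattern that 43.5% of all genes showed. Since every called gene had it, separate groups in a called gene named below are description and no further support. The count of calls depended on single libraries: it was 32 higher and 40 lower without dTAG-13 replicate 1, 11 and 27 without dTAG-13 replicate 2, 41 and 49 without combination replicate 1, and 117 and 138 without combination replicate 2.

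**Figure D1:**
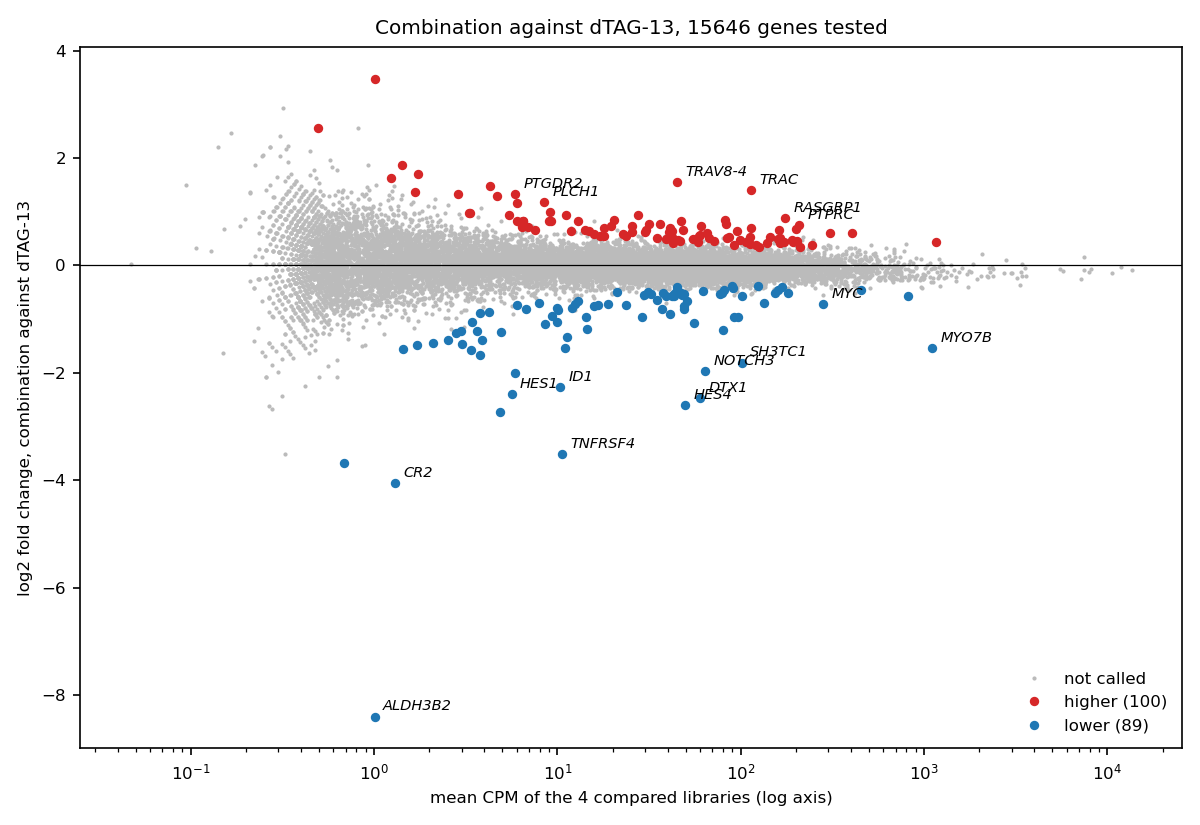
Log2 fold change of the combination against dTAG-13 (vertical axis) against the mean CPM of the 4 compared libraries (horizontal, log axis); each point is 1 of 15646 genes, with the 100 called higher in red and the 89 called lower in blue. The NOTCH targets DTX1, HES4, HES1 and NOTCH3 lie far below 0 at levels where most genes lie close to it; the position of ALDH3B2, which had no count in either combination library, depends on the prior count of the fit.

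Direct targets of NOTCH were among the genes that fell furthest. HES1 and HES4 are basic helix-loop-helix repressors that NOTCH switches on directly, HEY2 is a related repressor, and DTX1 encodes an E3 ubiquitin ligase of the Deltex family. The promoters of HES1, HES4 and HEY2 are shown because RBPJ, the DNA-binding partner of NOTCH, recognises a motif with the core TGGGAA. Each line gives the 250 bases before the transcription start (RefSeq, GRCh38.p14), with TGGGAA or its reverse complement TTCCCA in capitals.
HES1 (chr3:194135898-194136147, + strand): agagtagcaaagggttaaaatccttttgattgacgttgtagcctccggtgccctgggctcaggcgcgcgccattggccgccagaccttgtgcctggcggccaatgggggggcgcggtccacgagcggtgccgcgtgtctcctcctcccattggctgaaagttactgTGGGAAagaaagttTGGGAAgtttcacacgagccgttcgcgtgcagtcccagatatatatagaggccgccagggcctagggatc
HES4 (chr1:1000098-1000347, - strand): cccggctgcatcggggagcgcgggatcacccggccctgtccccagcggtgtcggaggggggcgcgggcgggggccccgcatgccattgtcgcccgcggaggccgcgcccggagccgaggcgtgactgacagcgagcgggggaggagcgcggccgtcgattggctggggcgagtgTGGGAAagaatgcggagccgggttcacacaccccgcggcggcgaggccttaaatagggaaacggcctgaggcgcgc
HEY2 (chr6:125749382-125749631, + strand): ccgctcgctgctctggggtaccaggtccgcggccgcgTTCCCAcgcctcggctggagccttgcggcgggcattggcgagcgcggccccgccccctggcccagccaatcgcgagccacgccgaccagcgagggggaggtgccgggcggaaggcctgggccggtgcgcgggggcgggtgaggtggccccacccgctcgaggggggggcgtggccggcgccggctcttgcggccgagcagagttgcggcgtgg

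The core begins 84 and 70 bases before the start of HES1, 76 before that of HES4 and, on the opposite strand, 213 before that of HEY2. The longer form GTGGGAA, searched on both strands and containing the core, occurs in all 3. Of the 47 named genes with a promoter at hand 4 had it, the other being RORB, which rose. NOTCH3, PTCRA, CR2, IGF1R, RHOU and GIMAP5, which are reported NOTCH1 targets that fell, had no match even to the core. Over the 250 bases before transcription starts GTGGGAA was in 5.43% of all 35116 promoters at hand and in 4.96% of 13979 promoters of the genes tested. It was in 6 of 84 promoters of genes that fell (7.14%; 56 of 89 genes matched) and in 10 of 124 promoters of genes that rose (8.06%; 65 of 100 matched). The core alone was in 20.8% of all promoters, 19.1% of those of genes tested, 19% of those of fallers and 22.6% of those of risers. A match is only a description of the letters in these windows.

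HES4 had 78.5 and 92.2 CPM in dTAG-13 replicates 1 and 2 and 15.4 and 12.8 CPM in the combination, which is -2.60 on the log2 scale (SE 0.18, adjusted p = 1.18e-05, edgeR). HES1 went from 9.40 and 9.51 CPM to 1.44 and 2.16 CPM (log2 fold change -2.39, SE 0.20, adjusted p = 5.52e-05). Both repressors were lower in each combination library than in either dTAG-13 library by several-fold. HEY2 went from 5.34 and 5.64 CPM to 3.07 and 2.97 CPM, again without overlap, and changed less, by -0.86 on the log2 scale (SE 0.18, adjusted p = 0.0375). The call of HEY2 was the least secure of the HES and HEY genes: it was lost whichever of the 4 libraries was left out (adjusted p up to 0.349) and with DESeq2 (adjusted p = 0.0872). The list of HES and HEY repressors also held BHLHE40, which is not a HES or HEY gene. Of the 7 measurable genes of the list these 3 fell and none rose, beside 0.569% and 0.639% of all genes. The other 4, HES7, BHLHE40, HES6 and HEYL, had log2 fold changes of -0.20 to 0.29 that did not pass. The median over the 7 was -0.20.

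DTX1 had the smallest p-value of the comparison. It stood at 99.5 and 105 CPM with dTAG-13 and at 19.7 and 17 CPM with the combination (log2 fold change -2.47, SE 0.10, adjusted p = 1.69e-07, edgeR). The 2 groups were far apart, and replicates within each differed little. Among the 18 genes of the Deltex family, NRARP and the NOTCH cofactors, DTX1 was the single gene that passed, beside 1.21% of all genes. Their median log2 fold change was 0.02. RBPJ itself (-0.01), the coactivators MAML1 (0.03), EP300 (0.09) and CREBBP (0.04), and FBXW7 (-0.13), which targets the NOTCH intracellular domain for degradation, did not pass. NRARP, a feedback inhibitor that NOTCH induces elsewhere, was barely expressed at 0.691 and 0.886 CPM with dTAG-13 and 0.605 and 0.623 CPM with the combination, and its change was not detectable at this depth (log2 fold change -0.36, SE 0.45).

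Of the receptors, NOTCH3 was called and NOTCH1 was not. NOTCH3, itself a target of NOTCH1, fell from 106 and 98.3 CPM to 31.1 and 21 CPM (log2 fold change -1.97, SE 0.15, adjusted p = 2.58e-05, edgeR). NOTCH1 had 107 and 99.5 CPM with dTAG-13 and 134 and 124 CPM with the combination, higher in both combination libraries, but it did not pass (log2 fold change 0.32, adjusted p = 0.0915). ADAM10, the protease of the first cut, rose from 144 and 137 CPM to 192 and 186 CPM (log2 fold change 0.43, SE 0.088, adjusted p = 0.0374), a call lost whichever of the 4 libraries was left out (adjusted p up to 0.449). NOTCH3 and ADAM10 were the 2 that passed of 15 measurable receptors, ligands, proteases and Fringe enzymes, beside 1.21% of all genes. None of the 5 measurable gamma-secretase subunits passed with edgeR or DESeq2. With edgeR 1 had an unadjusted p under 0.05, beside 13% of all genes.

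Of 22 measurable genes reported as NOTCH1 targets in T-ALL, 13 fell and none rose, against 0.569% of all genes that fell, and the median log2 fold change was -0.70. This list was compiled from the literature with earlier results of these data known. Counting each fit that left out 1 of the 4 libraries, 11 to 12 of its genes fell; a fit with DESeq2 gave 13. Besides the genes above, the fallers included PTCRA, the surrogate alpha chain that early thymocytes pair with a T cell receptor beta chain, at 8.52 and 10.2 CPM with dTAG-13 and 2.84 and 1.82 CPM with the combination (log2 fold change -2.0, SE 0.21, adjusted p = 0.000399, edgeR). Neither combination library of PTCRA approached the dTAG-13 libraries. CR2, the complement receptor CD21, had 50 and 56 counts with dTAG-13 and 3 and 3 counts with the combination, a ratio of 17.3 with a 95% exact interval of 7.7 to 48.3 that covers counting error only. Its log2 fold change was -4.06 (SE 0.38, adjusted p = 0.00014).

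Other NOTCH1 targets fell by smaller factors from higher levels. MYC, the growth regulator through which NOTCH1 drives T-ALL cells, had 348 and 352 CPM with dTAG-13 and 200.2 and 225 CPM with the combination (log2 fold change -0.72, SE 0.088, adjusted p = 0.00139, edgeR). IGF1R, a growth factor receptor, had 128 and 117 CPM and 66.7 and 58.7 CPM (log2 fold change -0.96, adjusted p = 0.000466). RHOU, an atypical small GTPase, had 106 and 116 CPM and 51 and 45.8 CPM (log2 fold change -1.20, adjusted p = 2.58e-05). In all 3 genes both combination libraries lay below both dTAG-13 libraries, and all 3 calls held without any one of the 4 libraries. SHQ1 (-0.69) and LZTFL1 (-0.56), singled out after their values were seen, completed the fallers with GIMAP5. IL7R, the interleukin-7 receptor, had 57.2 and 53.1 CPM with dTAG-13 and 41.9 and 38.3 CPM with the combination and just missed the threshold (log2 fold change -0.46, SE 0.10, adjusted p = 0.0515). Listed targets that also did not pass included TRIB2 (-0.04), SKP2 (-0.09), NFKB2 (0.00), LEF1 (0.31) and CCND3 (0.30). At an unadjusted p under 0.05 edgeR gave 14 of the 22 measurable genes of the list lower and 2 higher. Of all 15646 genes it gave 1020 lower and 1017 higher.

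**Figure D2:**
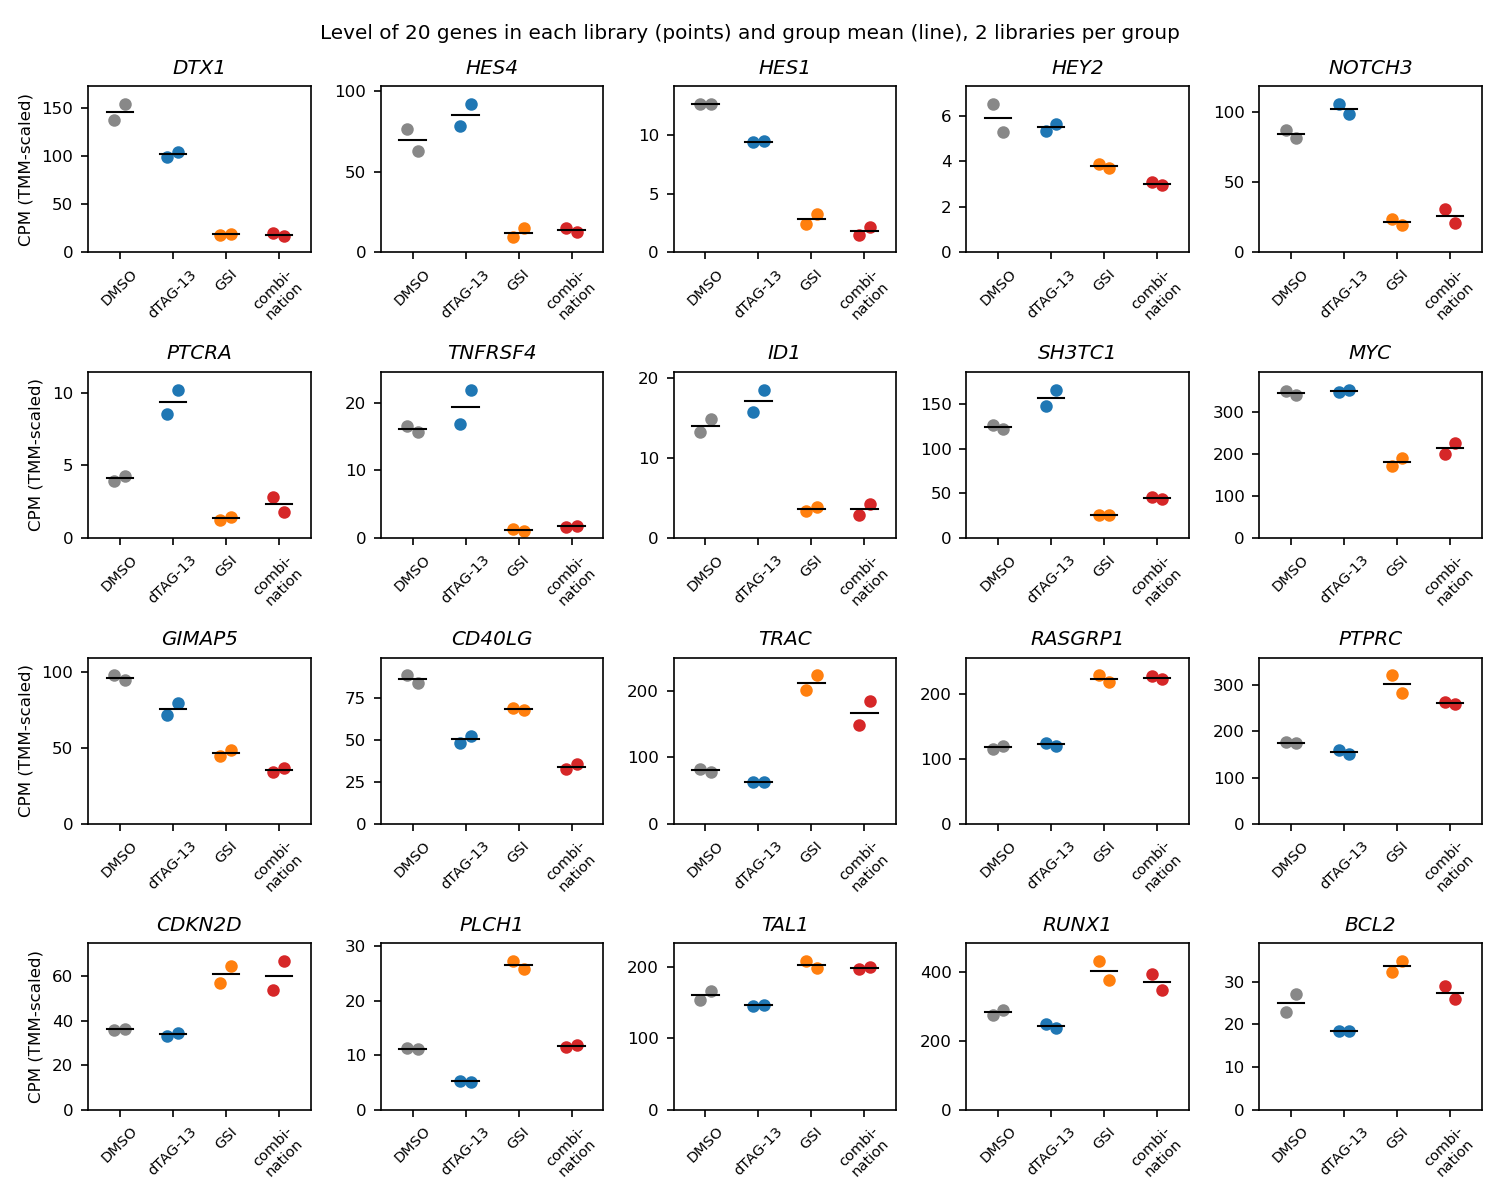
CPM (linear axis from 0) of 20 genes in each of the 8 libraries (points) with the mean of each group (line; 2 libraries per group). DTX1, HES4, HES1, NOTCH3, PTCRA and TNFRSF4 are low in both groups with GSI, TRAC, RASGRP1 and PTPRC are high in both, and PLCH1 with the combination stands near its DMSO level (11.5 and 11.9 against 11.3 and 11.1 CPM).

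Several genes outside the list also fell, and of the 5 given here TNFRSF4 alone fell as far as DTX1, HES4 and HES1. TNFRSF4, the costimulatory receptor OX40, had 16.9 and 22 CPM with dTAG-13 and 1.63 and 1.77 CPM with the combination (log2 fold change -3.51, SE 0.19, adjusted p = 1.56e-06, edgeR). SH3TC1, a protein with SH3 and tetratricopeptide domains, had 148 and 167 CPM and 46.2 and 43.5 CPM (log2 fold change -1.81, SE 0.089, adjusted p = 6.41e-07). In both genes the gap between the groups was wider than the gap between replicates, which was largest for the dTAG-13 libraries. MYO7B, an unconventional myosin, had 1641 and 1665 CPM with dTAG-13 and 629 and 512 CPM with the combination (log2 fold change -1.54, SE 0.11, adjusted p = 1.18e-05); after FADS2 it had the highest mean level of the called genes. GPR157, an orphan receptor, and RFX8, a member of the RFX transcription factor family, fell by 1.32 and 1.18 on the log2 scale. The calls of these 5 genes held without any one of the 4 libraries.

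ID1 codes for an inhibitor that binds E proteins, the partners of TAL1, and keeps them from DNA. It had 15.8 and 18.6 CPM with dTAG-13 and 2.93 and 4.22 CPM with the combination, far apart (log2 fold change -2.26, SE 0.18, adjusted p = 2.58e-05, edgeR). ID3, an inhibitor of the same family, had 99.9 and 118 CPM and 68.9 and 79.7 CPM and narrowly missed the threshold (log2 fold change -0.55, adjusted p = 0.0515). ADCYAP1, which encodes the neuropeptide PACAP, had 6.54 and 7.32 CPM with dTAG-13 and 3.30 and 2.59 CPM with the combination (log2 fold change -1.23, adjusted p = 0.00532), a call lost without dTAG-13 replicate 2 (adjusted p = 0.0846). CD40LG, the CD40 ligand of helper T cells, had 48.5 and 52.5 CPM and 32.5 and 35.5 CPM (log2 fold change -0.57, adjusted p = 0.00772), a call lost without combination replicate 1 or dTAG-13 replicate 2 (adjusted p up to 0.176). TNFRSF4 and CD40LG were the only 2 of 14 measurable TNF receptor family members and ligands that passed, beside 1.21% of all genes. The list's median was -0.03.

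All 7 GIMAP genes, a cluster coding for GTPases of lymphocyte survival, were lower in both combination libraries than in both dTAG-13 libraries, and 4 of them fell. Over all genes 21.3% were below without overlap and 0.569% fell. GIMAP5 had 71.3 and 79.2 CPM with dTAG-13 and 34.3 and 37 CPM with the combination (log2 fold change -1.08, SE 0.093, adjusted p = 6.63e-05, edgeR). GIMAP4 had 63.3 and 62 CPM and 37.6 and 33.9 CPM (-0.81, adjusted p = 0.000631). Both calls held without any one library. GIMAP1 (-0.74, adjusted p = 0.0106) and GIMAP7 (-0.73, adjusted p = 0.00342) also fell, while GIMAP8 (-0.75), GIMAP6 (-0.36) and GIMAP2 (-0.19) did not pass. The median was -0.74, and 2 of the 7 fell without dTAG-13 replicate 2. GIMAP genes belong to 1 family, and whether they share reads was not tested.

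Among the genes that rose, those of the T cell receptor stood out by size. TRAC, the constant region of the T cell receptor alpha chain, had 63 and 62.3 CPM with dTAG-13 and 148 and 184 CPM with the combination (log2 fold change 1.41, SE 0.11, adjusted p = 2.58e-05, edgeR). TRAV8-4, an alpha variable segment, had 23.4 and 22.5 CPM and 62 and 72.4 CPM (log2 fold change 1.55, SE 0.10, adjusted p = 7.37e-06). Both were over 2-fold higher in each combination library than in either dTAG-13 library, and both calls held without any one of the 4. The alpha chain and its surrogate thus went opposite ways, TRAC up and PTCRA down. The beta chain and the CD3 chains did not follow: TRBC2 had 687 and 733 CPM and 676 and 758 CPM (log2 fold change 0.01), CD247 0.04, CD3E -0.06, CD3G -0.19 and CD3D -0.42, none of which passed. TRAV16 and TRAV18, 2 further alpha segments singled out after their values were seen, rose from 0.507 and 0.699 CPM to 2.09 and 2.35 CPM and from 2.07 and 2.42 CPM to 4.33 and 4.51 CPM. Variable segments resemble each other and can share reads.

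Of 25 genes of T cell receptor signalling 3 rose and 1 fell, beside 0.639% and 0.569% of all genes, with a median log2 fold change of 0.14. RASGRP1, the exchange factor that activates RAS below the receptor, had 125 and 119.9 CPM with dTAG-13 and 228 and 224 CPM with the combination (log2 fold change 0.88, SE 0.077, adjusted p = 6.72e-05, edgeR). PTPRC, the phosphatase CD45 that acts on LCK, had 161 and 151 CPM and 264 and 259.8 CPM (log2 fold change 0.75, adjusted p = 0.000724). The replicates of both genes nearly coincided, with a wide gap between groups. UBASH3B, a phosphatase that restrains receptor signalling, rose by 0.52 and CD7, a T cell surface marker, fell by 0.52 on the log2 scale. Both of these calls were lost without dTAG-13 replicate 1, dTAG-13 replicate 2 or combination replicate 1 (adjusted p up to 0.18 for UBASH3B and 0.359 for CD7). The kinases LCK (-0.19) and ZAP70 (-0.06) and the adaptor LAT (0.19) did not pass. Of 12 genes of ERK feedback, which acts below RAS, ETV5 and DUSP1 rose. ETV5 went from 4.05 and 3.36 CPM to 9.91 and 6.71 CPM (log2 fold change 1.17, adjusted p = 0.0178, edgeR), and DUSP1 changed by 0.59 (adjusted p = 0.0438). A positive value was found for 11 of the 12, beside 49.8% of all genes, with a median of 0.24. The call of ETV5 was lost without dTAG-13 replicate 1, dTAG-13 replicate 2 or combination replicate 1 (adjusted p up to 0.242), and that of DUSP1 whichever of the 4 libraries was left out (up to 0.326).

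The other large rises were in genes of varied function. PTGDR2, the prostaglandin D2 receptor of type 2 helper T cells, had 3.59 and 3.12 CPM with dTAG-13 and 7.77 and 9.06 CPM with the combination (log2 fold change 1.32, SE 0.17, adjusted p = 0.002, edgeR). PLCH1, a phospholipase C, had 5.21 and 5.13 CPM and 11.5 and 11.9 CPM (log2 fold change 1.18, SE 0.12, adjusted p = 0.000414). ANTXR2, a receptor for extracellular matrix, had 61.2 and 56.5 CPM and 107 and 106 CPM (log2 fold change 0.85, adjusted p = 0.000372). None of these groups overlapped, as in every called gene. CDH24 (0.99), a cadherin, C10orf107 (0.95), the nuclear receptor gene RORB (0.95), LGALS1 (0.94), which encodes galectin-1, PPP1R16B (0.84), a phosphatase subunit, and NT5E (0.82), the ectonucleotidase CD73, rose as well. The calls of PLCH1 and ANTXR2 held without any one library. Without dTAG-13 replicate 2 the other 7 were lost, with adjusted p up to 0.0529 for PTGDR2, 0.136 for CDH24, 0.1 for C10orf107, 0.132 for PPP1R16B, 0.197 for NT5E, 0.218 for LGALS1 and 0.307 for RORB. RORB, LGALS1 and NT5E were also lost without dTAG-13 replicate 1 or combination replicate 1.

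TAL1 itself is the first of the genes of its circuit. Its mRNA had 154 and 166 CPM in DMSO, 145 and 147 CPM with dTAG-13, 208 and 198 CPM with GSI and 197 and 199 CPM with the combination. Since dTAG-13 acts on the protein, these mRNA levels do not check the degradation. With GSI on top of dTAG-13 the TAL1 mRNA rose (log2 fold change 0.44, SE 0.078, adjusted p = 0.0178, edgeR). ALDH1A2, a retinoic acid-making enzyme reported as activated by TAL1, had 139.8 and 129 CPM in DMSO, 75.5 and 76.3 CPM with dTAG-13 and 98.1 and 82.7 CPM with the combination. Its libraries with dTAG-13 were thus well below those with DMSO, while the step from dTAG-13 to the combination did not pass (log2 fold change 0.25, adjusted p = 0.347).

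Of 13 measurable genes of the TAL1 complex, TAL1 included, 2 rose, TAL1 and RUNX1, and none fell, beside 0.639% and 0.569% of all genes. The log2 fold change was positive in 10, beside 49.8% of all genes, and negative in 3 (lowest -0.43), with a median of 0.18. RUNX1 had 249 and 238 CPM with dTAG-13 and 395 and 348 CPM with the combination (log2 fold change 0.61, SE 0.10, adjusted p = 0.00836, edgeR). ARID5B, a chromatin regulator that TAL1 activates, had 55.1 and 48.8 CPM and 84.6 and 73.6 CPM (log2 fold change 0.61, adjusted p = 0.0161). Both were above dTAG-13 in each combination library. GATA3 had 84.1 and 82 CPM and 107 and 101 CPM, also without overlap, but it did not pass (log2 fold change 0.33, adjusted p = 0.0821), and MYB, at 288 and 266 CPM and 281 and 276 CPM, overlapped, with a log2 fold change of 0.0059 whose sign turned without dTAG-13 replicate 2 (-0.049) or combination replicate 1 (-0.0030). Of 15 measurable genes reported as activated by TAL1, TAL1, RUNX1 and ARID5B rose and none fell, beside the same shares of all genes, and the median was 0.06. The calls of all 3 were lost without dTAG-13 replicate 1, dTAG-13 replicate 2 or combination replicate 1 (adjusted p up to 0.231 for TAL1, 0.182 for RUNX1 and 0.271 for ARID5B).

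Of 18 measurable transcription factors of thymocyte development 3 rose and none fell, against 0.639% of all genes that rose. A positive log2 fold change was found for 14 of them, beside 49.8% of all genes, and the median was 0.22 (0.12 without dTAG-13 replicate 2, with no call). TOX, required for the CD4 lineage, had 134 and 117 CPM with dTAG-13 and 198 and 199 CPM with the combination (log2 fold change 0.66, SE 0.086, adjusted p = 0.00214, edgeR). TOX2, a relative, had 3.18 and 2.24 CPM and 6.0 and 7.24 CPM (log2 fold change 1.29, adjusted p = 0.00569). SATB1, a chromatin organiser of thymocytes, had 214 and 211 CPM and 266 and 285 CPM (log2 fold change 0.37, adjusted p = 0.0459). The groups of all 3 were separate. None of the 3 passed without dTAG-13 replicate 2 (adjusted p up to 0.0801 for TOX, 0.122 for TOX2 and 0.475 for SATB1), and SATB1 did not pass whichever library was left out. The recombinase genes RAG1 (50.1 and 47.8 CPM with dTAG-13 and 65.6 and 51.5 CPM with the combination, adjusted p = 0.418) and RAG2 (51.5 and 46.6 and 59.6 and 56.4 CPM, adjusted p = 0.369) were called in neither direction. Of 15 thymocyte genes associated with E proteins, PTCRA fell and SH2D1A, the signalling adaptor SAP, rose by 0.46 on the log2 scale, a call lost without either dTAG-13 library (adjusted p up to 0.173); the median was -0.05.

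**Figure D3:**
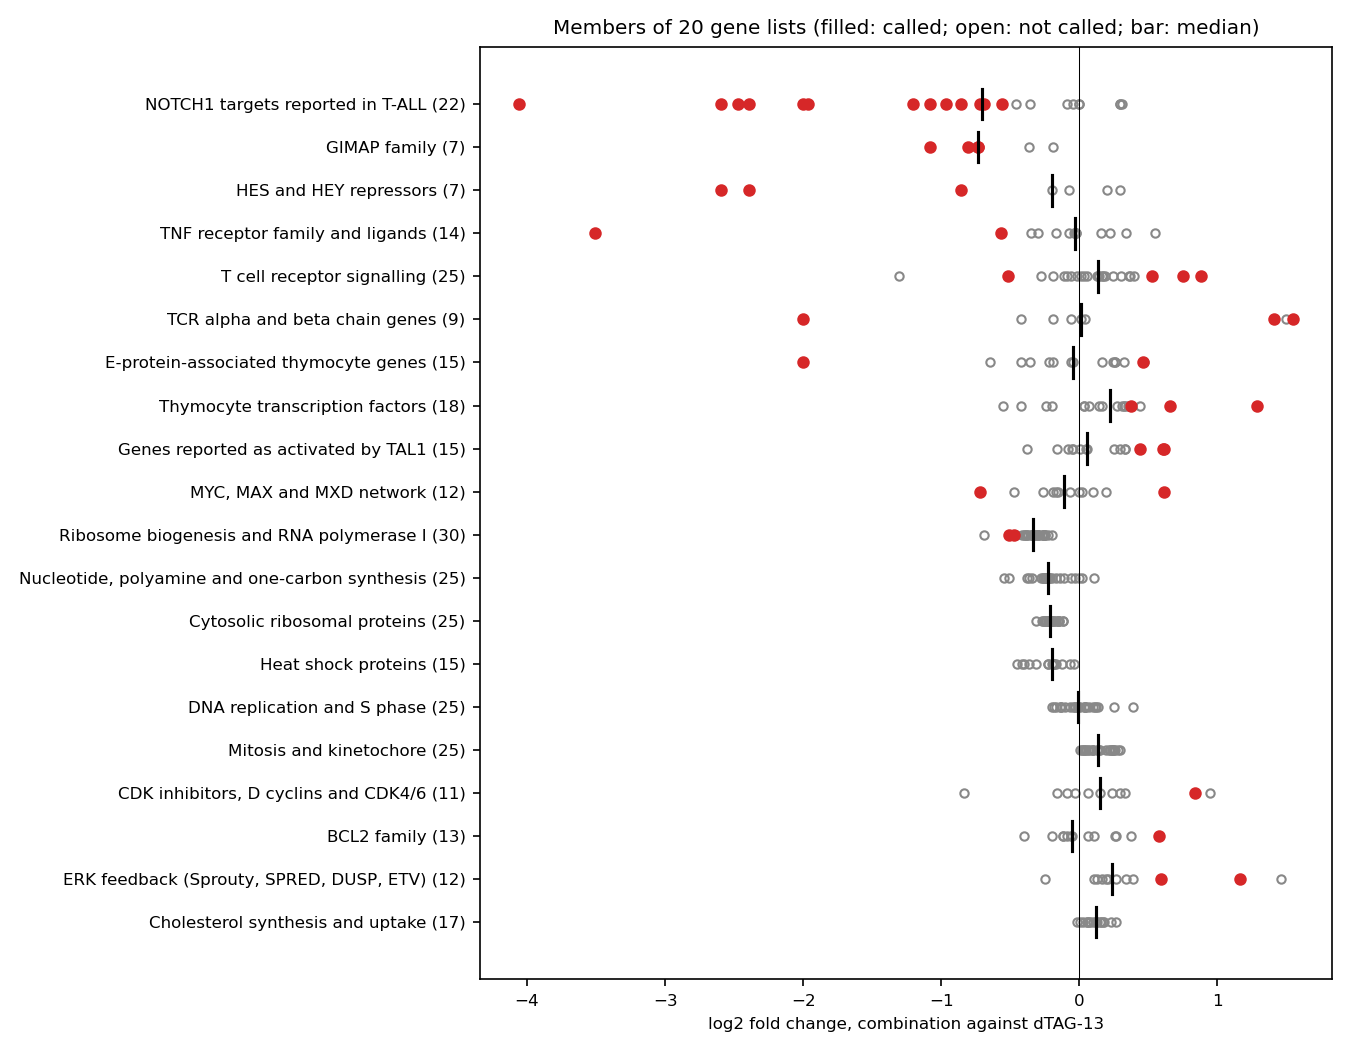
Log2 fold change of the combination against dTAG-13 (horizontal axis) for the measurable members of 20 of the 44 gene lists, with called genes filled, others open, the median as a bar and the number of members in brackets. The NOTCH1 targets (median -0.70) and the GIMAP family (-0.74) reach far to the left, while the lists of ribosome biogenesis (-0.33), ribosomal proteins (-0.22) and mitosis (0.13) form narrow groups beside 0.

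Genes for making ribosomes had small negative log2 fold changes. Over all genes 49.8% had a positive value, 0.639% rose and 0.569% fell. In the MYC network MYC fell and MXD3, a repressor that competes for its partner MAX, rose (from 33.3 and 30.6 CPM to 53.5 and 44.3 CPM, log2 fold change 0.62, adjusted p = 0.0278, edgeR), with a median of -0.11 over 12 genes. Of 30 genes of ribosome biogenesis and RNA polymerase I all had a negative log2 fold change (-0.69 to -0.20, median -0.33), 29 were below without overlap (21.3% of all genes were), and 2 fell, POLR1B, a subunit of RNA polymerase I (70.6 and 74.2 CPM to 49.6 and 54.9 CPM, -0.47, adjusted p = 0.0298), and MYBBP1A, a nucleolar protein (179.7 and 183 CPM to 114 and 140.4 CPM, -0.51, adjusted p = 0.0323). The count for this list depended on single libraries: it was 0 without dTAG-13 replicate 1, dTAG-13 replicate 2 or combination replicate 1 and 14 without combination replicate 2, and the median ranged from -0.51 to -0.18. The call of MXD3 was lost without the same 3 libraries (adjusted p up to 0.349). All 25 ribosomal protein genes (median -0.22), all 19 translation factors (-0.15) and all 15 heat shock genes (-0.20) also had negative values with no call by edgeR, as did 23 of 25 genes of nucleotide, polyamine and one-carbon synthesis (-0.23). At an unadjusted p under 0.05 edgeR gave 0, 5, 5 and 16 genes of these 4 lists, all lower, beside 1020 of all 15646 genes. DESeq2 called 3 heat shock genes and 2 of nucleotide and one-carbon synthesis lower and none of the other 2 lists, and edgeR without combination replicate 2 called 4, 3 and, of the translation factors, 1. The 13 mitochondrially encoded transcripts, which reflect RNA composition and quality, were negative too (median -0.09), and combination replicate 1 had the lowest mitochondrial share of the 8 libraries (7.8%, against 8.29% and 8.74% with dTAG-13). In GSI against DMSO the median of the mitochondrial transcripts was 0.13. The other medians there were -0.35 for ribosome biogenesis, -0.18 for ribosomal proteins, -0.15 for translation factors, -0.17 for heat shock genes and -0.26 for nucleotide synthesis. The part of RNA composition in these small shifts was not tested.

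Few cell cycle and survival genes passed the test. Over all genes 1.21% passed, 13% had an unadjusted p under 0.05 with edgeR and 49.8% had a positive log2 fold change. CDKN2D, the CDK4/6 inhibitor p19, had 33.1 and 34.5 CPM with dTAG-13 and 53.8 and 66.8 CPM with the combination (log2 fold change 0.83, SE 0.11, adjusted p = 0.00266, edgeR), and its call held without any one library. It was the only called gene of 11 CDK inhibitors, D cyclins and their kinases; CDK4 (-0.16), CDK6 (0.15) and CCND2 (-0.03) did not pass. BCL2, the survival factor, rose from 18.4 and 18.3 CPM to 29 and 25.9 CPM (log2 fold change 0.58, adjusted p = 0.0296), alone among 13 members of its family. BCL2 did not pass without dTAG-13 replicate 1, dTAG-13 replicate 2 or combination replicate 1 (adjusted p up to 0.298). All 25 mitosis genes had a positive value under TMM scaling (1 turned negative with DESeq2's size factors), but none passed with edgeR or DESeq2 (9 at an unadjusted p under 0.05 with edgeR), and the median was 0.13. The 25 genes of DNA replication centred on -0.01, also with no call by either (3 at an unadjusted p under 0.05). Of 21 genes of PI3K and AKT signalling, INPP5D, the phosphatase SHIP1, fell (39.9 and 37.1 CPM to 28.3 and 24.9 CPM, -0.54, adjusted p = 0.0322), a call lost whichever library was left out (adjusted p up to 0.273). XBP1, a factor of the unfolded protein response, rose (158 and 167 CPM to 210.3 and 232 CPM, 0.44, adjusted p = 0.0258), alone among 18 genes of endoplasmic reticulum stress, and it did not pass without combination replicate 2 or either dTAG-13 library (up to 0.259). Genes of the IL7R and STAT5 pathway, p53 targets, interferon-stimulated genes, glycolysis and amino acid stress held no call by edgeR. At an unadjusted p under 0.05 these lists had 5 of 16, 1 of 16, 4 of 19, 1 of 21 and 1 of 19 genes. Of these lists DESeq2 called 1 gene, IL7R, which was lower (adjusted p = 0.0213).

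The same drug contrast without dTAG-13, GSI against DMSO, called 137 genes higher and 135 lower (1.74% of genes; 0.876% and 0.863%). It shares no library with the contrast above. The 2 sets of calls overlapped widely: 83 genes rose in both, which is 83% of those raised here and 60.6% of those raised without dTAG-13, and 75 fell in both, 84.3% and 55.6%. No gene was called in opposite directions, and 188 of the 189 genes called here had the same sign without dTAG-13, beside 70.1% of all genes tested. Of the 158 shared genes the larger absolute log2 fold change was without dTAG-13 in 81 and with it in 77. Their log2 fold changes differed by a median of 0.073, against a median SE of that difference of 0.15. Being called the same way in both contrasts favours similar values, so these figures do not measure how alike the effects were.

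The difference between the 2 GSI effects, tested gene by gene as an interaction, called 0 genes with edgeR (0% of genes; smallest adjusted p = 0.999906) and 0 with DESeq2. At an unadjusted p under 0.05 edgeR gave 260 genes (1.66%), and DESeq2 gave 40 higher and 36 lower. With 2 libraries per group, this does not show that the effects were alike. DTX1 and SH3TC1 had the smallest unadjusted p-values among well-measured genes. DTX1 had 138 and 154 CPM in DMSO and 18.3 and 18.9 CPM with GSI, so its fall without dTAG-13 (-2.97) was larger than with it (-2.47), a difference of 0.50 (SE 0.14, unadjusted p = 0.00393). The levels with GSI overlapped between the backgrounds, and those without GSI did not. SH3TC1 had 126 and 122 CPM in DMSO and 25.3 and 25.9 CPM with GSI (-2.28 without and -1.81 with dTAG-13, difference 0.47, SE 0.12, unadjusted p = 0.00272). RAG1 pointed opposite ways, -0.28 without and 0.26 with dTAG-13 (difference 0.54, SE 0.19, unadjusted p = 0.0144), with neither effect called. RP11-343N15.5 (difference -0.63, unadjusted p = 0.00501), KIAA1841 (0.63, 0.00512) and HSD17B6 (-0.64, 0.00653) completed the 5 smallest by the rule for named genes.

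**Figure D4:**
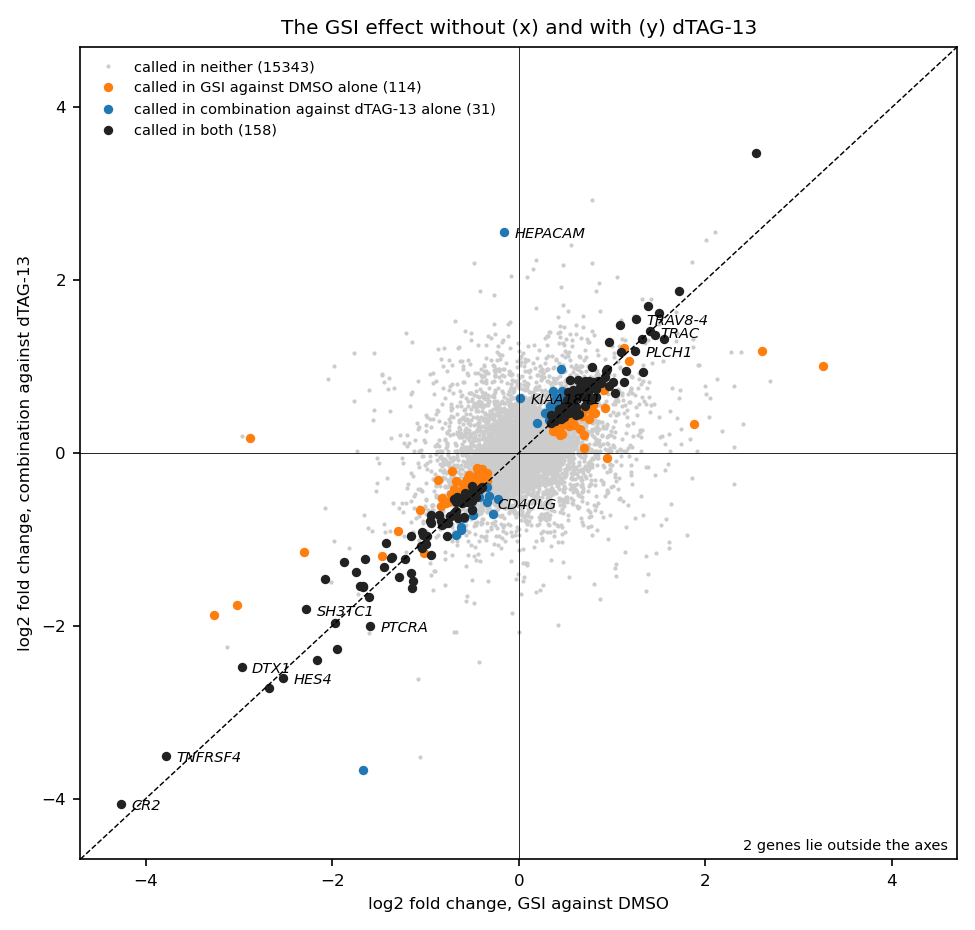
Log2 fold change of GSI against DMSO (horizontal axis) and of the combination against dTAG-13 (vertical axis); each point is 1 gene, coloured by where it was called, and the dashed line marks equal effects. The 158 genes called in both (black) lie along the line from CR2 at the lower left to TRAC and TRAV8-4 at the upper right. Their choice by calls in both contrasts favours such positions. Outside the axes lie 2 of the 15646 genes.

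For the genes described above the GSI effects in both backgrounds lay side by side as follows. HES4 had log2 fold changes of -2.53 without and -2.60 with dTAG-13, HES1 -2.16 and -2.39, and NOTCH3 -1.97 and -1.97. MYC had -0.94 and -0.72, GIMAP5 -1.05 and -1.08, and TNFRSF4 -3.78 and -3.51. All of these genes were called in both backgrounds. TRAC rose by 1.40 and 1.41, RASGRP1 by 0.92 and 0.88, PTPRC by 0.79 and 0.75, and CDKN2D by 0.75 and 0.83. PTCRA had -1.59 and -2.0, from a starting level that was higher with dTAG-13 (8.52 and 10.2 CPM) than with DMSO (3.93 and 4.27 CPM). The reverse held for PLCH1, where GSI took 11.3 and 11.1 CPM to 27.3 and 25.9 CPM without dTAG-13 and 5.21 and 5.13 CPM to 11.5 and 11.9 CPM with it, log2 fold changes of 1.25 and 1.18. Of the NOTCH1 target list 13 of 22 fell in each background, with medians of -0.72 and -0.70.

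Of the genes called here, 31 were not called without dTAG-13, but 30 of them had the same sign there and 27 also had an unadjusted p under 0.05. Over all genes 70.1% had the same sign in both contrasts, and 14% had an unadjusted p under 0.05 without dTAG-13. CD40LG was one: GSI took it from 88.8 and 84.3 CPM to 68.9 and 67.8 CPM without dTAG-13 (-0.34, adjusted p = 0.0774) and by -0.57 with it, a difference of -0.23 (SE 0.12, unadjusted p = 0.0849). BCL2 (0.42 without, 0.58 with dTAG-13), ADAM10 (0.38, 0.43), HEY2 (-0.62, -0.86) and DUSP1 (0.54, 0.59) were others. An unadjusted p of the difference under 0.05 was reached by 3 of the 31, which were singled out after their values were seen. KIAA1841 had 9.08 and 9.42 CPM with dTAG-13 and 15.5 and 13.3 CPM with the combination, and 11.3 and 10.3 CPM in DMSO and 10.4 and 11.4 CPM with GSI. Its rise with the combination was lost without dTAG-13 replicate 1, dTAG-13 replicate 2 or combination replicate 1 (adjusted p up to 0.282). HEPACAM, a cell adhesion gene, rested on few counts: 3 and 3 with dTAG-13, 19 and 17 with the combination, 8 and 13 in DMSO and 11 and 9 with GSI. ALDH3B2, an aldehyde dehydrogenase, had 28 and 59 counts with dTAG-13 and 0 in both combination libraries, at least 28.4-fold lower against a floor of 3 counts over the group, and fell from 18 and 34 counts in DMSO to 3 and 7 with GSI.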

How the data were processed

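Total RNA of 8 samples (4 groups of 2) was sequenced from both fragment ends with strand-specific kits. The hg19 build, STAR 2.5.2a, featureCounts and DESeq2 1.12.4 are named per the submitters' processing notes; which annotation and strand setting the counting used is not given in the sources used here. Overlapping and antisense genes may therefore share reads. The authors deposited whole-number counts per gene and library; their deposited tables of each treatment against DMSO were not used. Genes were kept by filterByExpr of edgeR 4.0.16 (R 4.3.3), leaving 15646 with at least 99.89% of each library's counts. TMM-scaled counts entered 1 robust quasi-likelihood model of the 4 groups (4 residual degrees of freedom, biological coefficient of variation 0.0804), with 2-sided F-tests and Benjamini-Hochberg adjustment over all genes at a threshold of 0.05. An SE is the log2 fold change divided by the root of F. The test was tested on simulated data. Principal components used log2(CPM + 0.5).

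The members and the 44 gene lists were chosen with earlier results of these data known. Named genes were those called genes with the 12 highest and the 12 lowest log2 fold changes that had a mean of at least 5 CPM and no overlap between groups (without clone and pseudogene names), a fixed list, up to 3 called members of each gene list in each direction, and the 5 genes with the smallest unadjusted p of the difference between the GSI effects with a mean of at least 5 CPM. Motifs were sought in the 250 bases before the start within RefSeq promoter windows of 300 bases, which were at hand for 47 of the 65 named genes. Alternatives were DESeq2's size factors, no filter, DESeq2 1.42.0's Wald test, a replicate block, the 4 compared libraries alone and leaving out each library.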

Additional observations from a re-analysis of the deposited data

How the results depend on the processing

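With DESeq2's size factors the counts for the combination against dTAG-13 were 98 higher and 89 lower, and with the Wald test of DESeq2 135 and 109. Without a filter on low counts they were 264 and 299 (303 and 357 for GSI against DMSO, 179 and 184 shared). In the 4 compared libraries alone they were 47 and 49, with 46 and 46 shared, a setting for the shared genes that was added after seeing the data. Leaving out 1 library gave 11 to 117 higher and 27 to 138 lower here, 9 to 105 and 23 to 123 for GSI against DMSO, and 9 to 83 and 23 to 76 shared. The difference between the GSI effects gave 0 to 0 genes higher and 0 to 1 lower in these fits; the 1 gene, AC079949.1, appeared without DMSO replicate 1, and its counts in DMSO were 437 and 105. Leaving out a library leaves 1 sample in its group, which is then assumed to vary like the others, and the fits without dTAG-13 replicate 2 made the fewest calls; the cause was not tested. MYB ranged from -0.049 (without dTAG-13 replicate 2) to 0.071 (without dTAG-13 replicate 1) and was -0.0030 without combination replicate 1.

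The replicate block gave 241 genes higher and 235 lower (264 and 295 for GSI against DMSO, 160 and 156 shared) and no call for the difference. The labels do not say what shared numbers mean, and 2 numbers per group cannot establish a pairing: deviations of same-numbered libraries from their group means correlated at 0.228 between dTAG-13 and the combination, 0.311 between GSI and the combination, 0.226 between dTAG-13 and GSI and -0.166 between DMSO and GSI. On the second principal component of all 8 libraries replicate 1 of GSI and of the combination lay at 9.61 and 9.23 and replicate 2 at -15.6 and -15.4. The fit without the block was kept, and whether the numbers mark a batch in part of the groups was not tested.

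Of the 54 called named genes, 54 stayed called with size factors, without a filter and with the block, 53 with DESeq2 and 39 in the 4 libraries alone, where ETV5, RORB, TAL1, XBP1, MXD3, BCL2, POLR1B, CD7, INPP5D, MYBBP1A, ADAM10, HEY2, DUSP1, SATB1 and KIAA1841 did not pass (adjusted p 0.0562 to 0.127); 24 stayed called in all 4 fits that each left out 1 library. Of the 189 called genes 159 had a mean of at least 5 CPM over the 4 compared libraries and 30 lay under it. Among the 15646 genes tested 10544 reached 5 CPM. Whether depth limited the calls under it was not tested.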

Other observations

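The values below were singled out after they were seen. The largest rise by fitted fold was in MIR223, the gene of a microRNA known from myeloid cells. It had 5 and 2 counts with dTAG-13 and 47 and 32 with the combination, a ratio of 11.5 with a 95% exact interval of 5.33 to 29.5 for counting error only, and 8 and 7 counts in DMSO against 47 and 48 with GSI. The counts do not separate the hairpin from its longer transcript.

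RGPD1, RGPD2 and RGPD3, near copies of one another that can share reads, all fell: RGPD2 had 5.34 and 4.89 CPM with dTAG-13 and 2.0 and 2.40 CPM with the combination, RGPD1 4.38 and 4.80 CPM and 2.09 and 2.35 CPM, and RGPD3 1.98 and 2.33 CPM and 0.698 and 0.767 CPM. Their log2 fold changes were -1.22, -1.04 and -1.55 (edgeR's quasi-likelihood test, adjusted p = 0.0186, 0.0186 and 0.043). ADA, the purine enzyme adenosine deaminase, fell from 927 and 1024 CPM to 631 and 685 CPM (log2 fold change -0.57, adjusted p = 0.0281), while NT5E, which makes adenosine at the cell surface, rose. TLR5, the flagellin receptor, fell from 5.80 and 4.29 CPM to 1.72 and 1.68 CPM (log2 fold change -1.57, adjusted p = 0.00351).

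Of 10 B cell markers 5 were measurable: BLK, EBF1, IGLL1, CD79A and VPREB1. All 5 were higher in both combination libraries than in both dTAG-13 libraries, as were 22.2% of all genes. None of the 5 was called by edgeR and 1 by DESeq2. At an unadjusted p under 0.05 edgeR gave 3 of the 5, beside 13% of all genes. The median log2 fold change of the 5 was 0.47. Their summed level was 236 and 283 CPM with dTAG-13, 335 and 383 CPM with the combination, 287 and 253 CPM in DMSO and 350.0 and 490.3 CPM with GSI.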
